A study of Rattus norvegicus with 2 samples.

Results

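Transcripts of 10 genes encoding receptors for neuropeptides were examined in sympathetic neurons of the rat stellate ganglion, the ganglion that supplies most sympathetic fibers to the heart. The genes were Npy1r, Npy2r and Npy5r (receptors for neuropeptide Y), Oprm1, Oprd1 and Oprl1 (opioid receptors), Galr1 (galanin), Sstr2 and Sstr4 (somatostatin) and Adcyap1r1, which encodes the PAC1 receptor for the peptide PACAP. They were picked by gene symbol as receptors for peptides, and all 10 are among the 25395 genes with a value in both libraries. Ganglia of male rats aged 5 to 6 weeks were dissociated with collagenase and trypsin, and the cells were sequenced by the 10x Genomics 3' droplet method, with 1 library of normotensive Wistar rats and 1 library of SHRs (spontaneously hypertensive rats) in the prehypertensive state. Each library is given as 1 mean per gene over its sympathetic neuron cluster, in counts per 10000 counts of a neuron. Neither strain has a replicate library, so differences between the strains could not be tested and carry no error, and strain and library preparation cannot be told apart. Wistar rats are an outbred stock and SHRs an inbred line, and the SHR was not compared here with its inbred relative, the Wistar-Kyoto rat.

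All 10 genes encode G protein-coupled receptors. Receptors for neuropeptide Y, opioids and somatostatin, and the galanin receptor encoded by Galr1, act mainly through inhibitory G proteins, which lower cyclic AMP, close N-type calcium channels and open inward rectifier potassium channels, and on sympathetic nerve endings such receptors restrain transmitter release. PACAP, which preganglionic fibers release in sympathetic ganglia, acts in the opposite direction, since its receptor raises cyclic AMP and excites the postganglionic neuron. Sympathetic neurons also make several of these peptides themselves, above all neuropeptide Y, which is released together with norepinephrine.

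The neuron clusters bore their label. All 12 markers of sympathetic neurons passed an average of 0.1 per 10000 over both libraries, and 8 of the 12 had the lower mean in SHR. Their summed level was 96.9 per 10000 in Wistar neurons, against 97.5 in SHR neurons. The highest were Uchl1, with 25.0 and 30.8, and Snap25, with 17.4 and 23.7, both higher in SHR, as were Dlg4 and Hand2. Dbh, Ddc, Maoa and Cacna1b, 4 of the 12, were lower by 1.5-fold or more, beside 26.5% of all genes. Hand2 alone was higher by that limit, beside 5.22% of all genes. The sum therefore does not show that single markers were level. Markers of other cells were present at low levels and were mostly lower in SHR. The 9 satellite glia and Schwann cell markers summed to 3.15 per 10000 in Wistar neurons, against 1.23 in SHR neurons, and 9 of 9 were lower in SHR. The 6 fibroblast markers summed to 1.84 and 0.353, with 6 of 6 lower, and the 6 endothelial markers to 0.111 and 0.0373, with 6 of 6 lower. The 8 immune markers summed to 0.443 and 0.0862, with 6 of 8 lower and the T cell gene Cd3e at 0 in both. The 6 vascular smooth muscle markers summed to 0.120 and 0.0714, with 4 of 6 lower and Rgs5 at 0 in SHR. The 3 erythrocyte markers with a value summed to 0.0669 and 0.0499, with 1 of 3 lower and Alas2 at 0 in both. Most genes had the lower mean in SHR. Of the 7621 genes with an average of at least 0.1 per 10000, 65.6% were lower in SHR. The median log2 ratio of SHR over Wistar over these genes was -0.21. The shift depended on level. Over genes within 2-fold of the average of Adcyap1r1, 1.42 per 10000, the median log2 ratio was -0.043. Within 2-fold of the average of Sstr2, 0.0741, it was -0.45. The part of other cells in the values of the receptor genes was not tested.

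The smallest values give a scale for how few counts a gene can rest on. A gene read once in a single neuron takes a mean that depends only on that neuron's total, so genes read once in the same neuron are listed with exactly the same value. Values shared by 3 or more genes, leaving out their whole multiples, numbered 199 in Wistar and 108 in SHR. Their median was 0.000327 per 10000 in Wistar, with a range from 0.000140 to 0.00776, and 0.000885 in SHR, with a range from 0.000391 to 0.0186. They are read here as the order of size of 1 count in 1 neuron, which could not be checked without the single cells. How many counts stand behind a mean is unknown.

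The 10 receptor genes formed a detected and a barely detected set. Adcyap1r1, Oprl1, Npy1r and Sstr2, in this order in both libraries, had means from 0.0641 to 1.66 per 10000. All 4 lay above the highest recurring value of their library. Npy2r, Galr1, Oprm1, Npy5r and Sstr4 did not exceed 0.00196 per 10000 in either library, and Oprd1 was listed at 0 in both. Below the first 4 genes the order of levels was not the same in the 2 libraries. Adcyap1r1 alone made up 78.6% of the summed level of the 10 genes in Wistar and 73.9% in SHR, and the sum went from 2.11 to 1.62 per 10000.

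**Figure D1:**
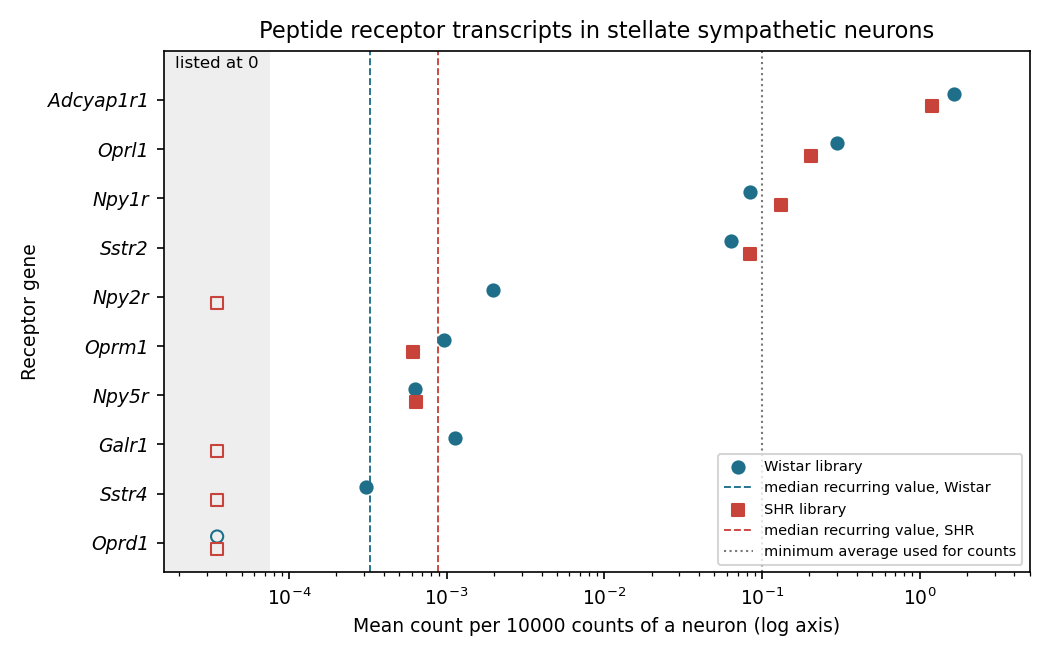
Mean count per 10000 (log axis) of the 10 receptor genes in the Wistar library (circles) and the SHR library (squares), with open symbols in the gray strip for genes listed at 0, dashed lines at the median recurring value of each library and a dotted line at 0.1 per 10000. Adcyap1r1, Oprl1, Npy1r and Sstr2 lie above 0.06 in both libraries, and the other 6 genes lie below 0.002 or at 0.

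Adcyap1r1, the PACAP receptor gene, had the highest mean of the 10. Its mean was 1.66 per 10000 in Wistar neurons, against 1.19 in SHR neurons, which placed it at rank 997 and rank 1340 among all genes, above 93.8% and 90.9% of the genes detected in the respective library. The mean was thus 1.39-fold lower in SHR, with a log2 ratio of -0.47 and a log2 difference of 1 plus the mean of -0.27. Relative to the median shift of all genes, the log2 ratio was -0.26. Genes whose average lay within 2-fold of that of Adcyap1r1 numbered 1792. Their median log2 ratio was -0.043, against -0.21 over all genes with an average of at least 0.1 per 10000. The middle 80% of their log2 ratios ran from -0.70 to 0.52, a range that holds the value of Adcyap1r1. Vipr2, a receptor that PACAP shares with vasoactive intestinal peptide (VIP), was far lower, with 0.0273 per 10000 in Wistar neurons, against 0.0118 in SHR neurons. The genes nearest to Adcyap1r1 in both libraries were Clcn6, Cast and Uqcrc2, with distances of at most 0.0251 on the natural log scale over the 2 libraries. With only 2 libraries such nearness describes like levels and nothing more.

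Among the opioid receptor genes, Oprl1 was the one detected in quantity. It encodes the receptor for nociceptin, which belongs to the opioid family by sequence but does not bind the classical opioids. Oprl1 had a mean of 0.298 per 10000 in Wistar neurons, against 0.204 in SHR neurons, a 1.46-fold lower level in SHR with a log2 ratio of -0.54. Relative to the shift of all genes the log2 ratio was -0.33. Over the 3919 genes within 2-fold of its average, the median log2 ratio was -0.335, and the middle 80% ran from -1.15 to 0.33. Its nearest genes by level were Syncrip, Pde3a and Mlst8, at distances of at most 0.00469 on the natural log scale over the 2 libraries.

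The classical opioid receptor genes were at or near 0. Oprm1, the mu receptor gene, was listed at 0.000958 per 10000 in Wistar neurons, against 0.000611 in SHR neurons. Its SHR value was shared with 18 other genes, as is usual for the recurring values. Its Wistar value was 2.93 times the median recurring value of that library but 0.124 times the highest. Oprd1, the delta receptor gene, was listed at 0 in both libraries. Oprk1, the kappa receptor gene, was listed at 0.00524 per 10000 in Wistar, a value shared with 8 other genes, and at 0 in SHR. Oprl1 therefore held 98.0% of the summed level of the 4 opioid receptor genes in Wistar and 99.7% in SHR.

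Npy1r was the leading receptor for neuropeptide Y and had the higher mean in SHR. It encodes the Y1 receptor, best known for the vasoconstrictor action of neuropeptide Y on vascular smooth muscle. Its mean was 0.0838 per 10000 in Wistar neurons, against 0.133 in SHR neurons, so it was 1.59-fold higher in SHR, with a log2 ratio of 0.67 and a log2 difference of 1 plus the mean of 0.064. Relative to the median shift the log2 ratio was 0.88. Of the 3379 genes within 2-fold of its average, 80% had log2 ratios between -1.41 and 0.39, and the value of Npy1r lay above this range. The median over these genes was -0.42. Such a range leaves out genes at either end by construction, and it was drawn for 4 of the receptor genes. Of the 6 vascular smooth muscle markers, 4 were lower in SHR. These were Myh11, with 0.0880 and 0.0523 per 10000, Pdgfrb, with 0.00944 and 0.000868, Rgs5, with 0.00452 and 0, and Cnn1, with 0.00308 and 0.00206. Acta2, with 0.00983 and 0.0106, and Tagln, with 0.00487 and 0.00547, were slightly higher. The part of such cells in the Npy1r value was not tested. On the scale of the median recurring value, the Npy1r mean amounted to 256 such steps in Wistar and 150 in SHR. It was 10.8 and 7.14 times the highest recurring value of the respective library. Since Npy1r passed the average of 0.1 per 10000 only through its SHR value, its place among the genes that passed is not independent of its difference.

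Npy2r encodes the Y2 receptor, known as the presynaptic receptor by which neuropeptide Y limits release from sympathetic endings. It was listed at 0.00196 per 10000 in Wistar, which is 5.99 times the median recurring value but 0.252 times the highest, and at 0 in SHR. Npy5r was listed at 0.000628 in Wistar and 0.000635 in SHR, and its SHR value was shared with 15 other genes. Npy4r, the receptor gene for pancreatic polypeptide, was listed at 0.00556 in Wistar and at 0 in SHR. Of the summed level of these 4 genes, Npy1r held 91.1% in Wistar and 99.5% in SHR, and the sum went from 0.0919 to 0.134 per 10000.

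Npy1r and Npy5r are direct neighbors on chromosome 16 of the GRCr8 rat assembly, with no other gene between them, and are annotated on opposite strands. Their windows from 250 bases before to 50 bases after the start of the gene are shown because these neighbors differed so far in level, and the windows of Adcyap1r1 and Sstr2 because these genes were the most abundant and the other one higher in SHR. The sequences are from RefSeq in GRCr8 and run 5′ to 3′ on the gene's strand. Capitals mark the core of the cyclic AMP response element (TGACG on either strand, which also lies within the full element TGACGTCA) and the GC box (GGGCGG on either strand).

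Adcyap1r1, chr4:85923921-85924220 (+ strand): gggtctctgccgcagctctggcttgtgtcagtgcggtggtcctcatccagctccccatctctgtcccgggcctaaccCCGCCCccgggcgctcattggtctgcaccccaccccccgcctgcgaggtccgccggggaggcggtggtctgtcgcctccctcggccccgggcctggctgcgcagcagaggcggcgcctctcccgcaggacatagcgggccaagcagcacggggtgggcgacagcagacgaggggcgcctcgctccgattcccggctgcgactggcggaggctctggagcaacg
Npy1r, chr16:27813338-27813637 (- strand): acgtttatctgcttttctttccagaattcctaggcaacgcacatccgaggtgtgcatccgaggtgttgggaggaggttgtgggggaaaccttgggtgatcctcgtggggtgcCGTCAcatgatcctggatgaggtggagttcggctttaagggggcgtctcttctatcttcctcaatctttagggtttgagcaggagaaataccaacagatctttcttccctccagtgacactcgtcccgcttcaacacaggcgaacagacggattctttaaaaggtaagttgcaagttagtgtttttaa
Npy5r, chr16:27821805-27822104 (+ strand): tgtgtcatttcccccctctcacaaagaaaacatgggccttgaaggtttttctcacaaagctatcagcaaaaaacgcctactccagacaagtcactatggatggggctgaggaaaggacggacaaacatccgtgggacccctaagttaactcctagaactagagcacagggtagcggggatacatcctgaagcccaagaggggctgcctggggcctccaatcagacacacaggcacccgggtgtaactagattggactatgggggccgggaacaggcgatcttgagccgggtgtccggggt
Sstr2, chr10:99163103-99163402 (+ strand): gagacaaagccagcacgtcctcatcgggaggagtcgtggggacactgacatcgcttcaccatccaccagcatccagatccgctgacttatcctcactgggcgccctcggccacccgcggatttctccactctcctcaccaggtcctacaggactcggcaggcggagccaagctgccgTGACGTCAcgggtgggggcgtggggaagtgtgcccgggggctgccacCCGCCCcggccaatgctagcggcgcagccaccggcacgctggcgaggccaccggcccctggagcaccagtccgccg

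The RefSeq table held windows for 9 of the 10 genes, all but Oprl1, with 2 windows for Oprm1. The full cyclic AMP response element TGACGTCA, which reads the same on both strands, was found in the Sstr2 window, and 1.83% of the 33469 rat windows hold it. The shorter core was found in the windows of Npy1r and Sstr2, against 21.2% of all windows. The GC box was found in the windows of Adcyap1r1, Sstr2, Galr1 and Oprd1, against 33.1% of all windows. The TATAAA motif, searched on both strands, was found in none of the windows of the 9 genes and in 14.2% of all windows. The Npy5r window held none of the 4 motifs. The share of G and C was 73.0% for Adcyap1r1, 68.7% for Sstr2, 54.3% for Npy5r and 49.0% for Npy1r, against a median of 51.7% over all windows, while Oprd1, which was listed at 0, had 79.0%. These matches describe letters in the windows and show neither binding nor a relation to the levels.

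Sstr2, which encodes a somatostatin receptor that acts through inhibitory G proteins, was also higher in SHR. Its mean was 0.0641 per 10000 in Wistar neurons, against 0.0841 in SHR neurons, which is 1.31-fold higher, with a log2 ratio of 0.39. Relative to the shift of all genes the log2 ratio was 0.60. Over the 2955 genes within 2-fold of its average, the median log2 ratio was -0.45. The middle 80% of log2 ratios ran from -1.65 to 0.41, so Sstr2 lay just inside the upper end. Its average of 0.0741 was just under the limit of 0.1 per 10000, whereas that of Npy1r, 0.108, was just over it. Sstr4 was listed at 0.000308 in Wistar and at 0 in SHR. Sstr1 was listed at 0.00193 and 0.00428, Sstr3 at 0.000229 and 0.000391, and Sstr5 at 0 in both. Sstr2 held 96.3% of the summed level of the 5 somatostatin receptor genes in Wistar and 94.7% in SHR.

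For galanin, the receptor named among the 10 genes was not the one detected. Galr1 was listed at 0.00112 per 10000 in Wistar neurons, against 0 in SHR neurons. Galr2, which encodes a galanin receptor known to couple also to the phospholipase C pathway, had a mean of 0.242 in Wistar and 0.243 in SHR, and Galr3 was listed at 0 in both. Galr2 thus held 99.5% of the summed level in Wistar and was the only one of the 3 above 0 in SHR. Its log2 ratio was 0.0014, and with 1 library per strain no interval can be given for this near equality.

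Counted together, 3 of the 10 genes passed the average of 0.1 per 10000. Of these, Adcyap1r1 and Oprl1 were lower and Npy1r was higher in SHR, against 65.6% lower among all genes that passed. None of the 3 was lower by 1.5-fold or more, against 26.5% of all genes that passed, and 1 was higher by 1.5-fold or more, against 5.22%. This gene, Npy1r, passed only through its SHR value, so its part in these counts is not independent of its difference. The median log2 difference of 1 plus the mean over the 3 was -0.11, beside -0.05 over all genes that passed. With so few genes these shares say little about the group. Whether a change in a mean came from fewer neurons with the transcript or from less of it per neuron cannot be told apart in these values.

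**Figure D2:**
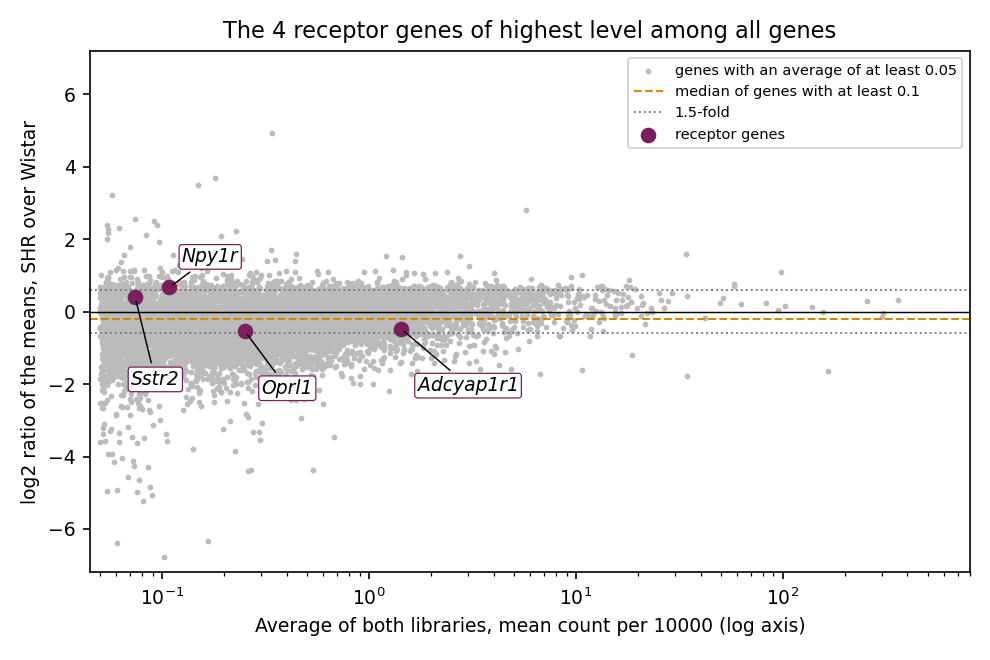
Log2 ratio of the means, SHR over Wistar, against the average of both libraries (log axis) for all genes with an average of at least 0.05 per 10000 (gray), with the 4 receptor genes in that range labeled, a dashed line at the median of genes with at least 0.1 and dotted lines at 1.5-fold. Npy1r, at 0.67, lies above the upper dotted line, Sstr2 lies above 0, and Adcyap1r1 and Oprl1 lie between the median and the lower dotted line.

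The genes of the matching peptides were read in the same means, which do not show whether a single neuron held both transcripts. The paper describes distinct sympathetic neuron populations in these ganglia, which differed mainly in whether they expressed neuropeptide Y. The part of their shares in the Npy values was not tested. Of 13 peptide genes with a value, Npy, Penk, Adcyap1, Pnoc and Pomc passed the average of 0.1 per 10000, and Ppy, Pdyn, Galp and Spx were listed at 0 in both libraries. Npy had a mean of 2.38 per 10000 in Wistar neurons, against 1.48 in SHR neurons, so that Npy1r and its ligand gene differed in opposite directions. The mean of Npy was 28.4 times that of Npy1r in Wistar and 11.1 times in SHR. Pnoc, which encodes nociceptin, also differed in the direction opposite to its receptor, with 0.217 in Wistar and 0.439 in SHR. Oprl1 thus stood at 1.37 times the level of Pnoc in Wistar and at 0.466 times in SHR.

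The PACAP gene Adcyap1 and its receptor were both lower in SHR. Adcyap1 had a mean of 0.445 per 10000 in Wistar neurons, against 0.200 in SHR neurons, a 2.22-fold lower level, and Adcyap1r1 stood at 3.72 times its ligand in Wistar and 5.97 times in SHR. Sst and Sstr2 were both higher in SHR, with Sst at 0.0473 and 0.0807 per 10000. Gal had a mean of 0.151 in Wistar and 0.0224 in SHR, 6.77-fold lower, beside a Galr2 level that was close in both. Vip was 11.2-fold lower in SHR, with 0.1502 and 0.0134, and Penk, which encodes enkephalins, was 11.7-fold lower, with 0.546 and 0.0467. The SHR means of Vip, Gal and Penk were 0.719, 1.20 and 2.51 times the highest recurring value of that library. The number of counts behind these folds is unknown. Pomc, the precursor gene of beta-endorphin, had 0.1004 and 0.119, and Pyy was listed at 0.00161 and at 0. Markers of other cells differed by folds of a similar size, for example Col1a1 of fibroblasts, which was 8.41-fold lower in SHR, and S100b of glia, which was 5.70-fold lower, both chosen after their values were seen. Whether RNA of other cells had a part in the values of Penk, Vip and Gal was not tested.

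**Figure D3:**
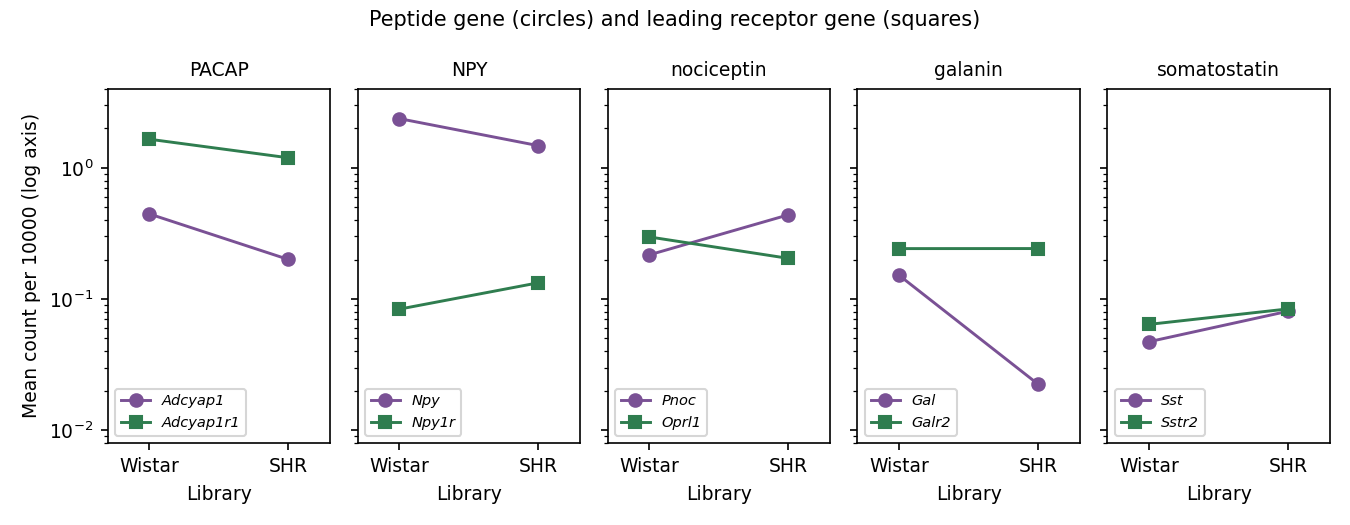
Mean count per 10000 (log axis) of a peptide gene (circles) and of the most abundant gene for its receptors (squares) in the Wistar and the SHR library, 1 panel for each peptide. Peptide and receptor differed in opposite directions for NPY and nociceptin and in the same direction for PACAP and somatostatin, while Gal was at 0.151 in Wistar and 0.0224 in SHR beside a nearly level Galr2.

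Other peptide receptor genes were mostly at or near 0 in these means. Of 33 further peptide receptor genes with a value, 19 were listed at 0 in both libraries and 1 passed the average of 0.1 per 10000. This gene was Sctr, which encodes the secretin receptor, a member of the same receptor family as PAC1 that also raises cyclic AMP. Sctr had a mean of 2.64 per 10000 in Wistar neurons, against 2.05 in SHR neurons, 1.29-fold lower, and was more abundant than Adcyap1r1 in both libraries. Among all 51 peptide receptor genes with a value, which are the 10 genes, 8 other receptors of the same peptides and these 33, 29 were above 0 in Wistar and 18 in SHR. Over all 25395 genes, 16000 were above 0 in Wistar and 14645 in SHR, where the median recurring value was also higher.

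The G proteins and effectors through which these receptors act were uneven in level. Of 25 such genes, 14 passed the average of 0.1 per 10000, 6 lower and 8 higher in SHR. Their median log2 ratio was 0.088, beside -0.21 over all genes that passed. That background depended on level, with -0.043 over genes within 2-fold of the average of Adcyap1r1. No background of like level was taken for this list. With the median log2 ratio of all genes set to 0, the split was 5 lower and 9 higher, since Gna11 changed sign. The highest were Gnas, the stimulatory alpha subunit gene, at 5.72 and 8.55 per 10000, Gng2 at 5.33 and 7.32, Gnb2 at 5.46 and 7.12 and Gng3 at 4.69 and 7.16, all subunit genes with higher means in SHR. The inhibitory alpha subunit gene Gnai2 had 2.12 in Wistar and 2.36 in SHR. Higher by 1.5-fold or more were Gnb1 and Gng3. Lower by 1.5-fold or more were Cacna1a and Cacna1b, which encode the P/Q-type and N-type calcium channels that such receptors inhibit, and the adenylyl cyclase genes Adcy2 and Adcy6. These were 4 of 14 lower and 2 of 14 higher by that limit, beside 26.5% and 5.22% of all genes. With the median log2 ratio of all genes set to 0 they became 2 lower, without Adcy2 and Adcy6, and 5 higher. When the total left out mitochondrial genes and ribosomal protein genes, 3 were lower and 3 higher. Gnb1, the channel genes and the cyclase genes were named after their values were seen. The potassium channel subunit genes Kcnj3 and Kcnj9 did not exceed 0.0368 per 10000.

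Genes for the desensitization of receptors and for RGS proteins, which end G protein signals, included few with a higher mean in SHR, but part of this count depended on the scaling. Of 12 such genes with a value, 9 passed the average, of which 8 had the lower mean in SHR, beside 65.6% of all genes. The median log2 ratio of the 9 was -0.44, beside -0.21. No background of like level was taken here either. With the median of all genes set to 0, the split was 6 lower and 3 higher, since Rgs4 and Rgs7 changed sign, and Rgs7 did so too when the total left out mitochondrial genes and ribosomal protein genes. The highest was Rgs4 at 5.30 per 10000 in Wistar neurons, against 4.91 in SHR neurons, followed by Rgs7 at 1.81 and 1.80, Gprasp1 at 1.54 and 0.952, Gprasp2 at 0.946 and 0.673 and Rgs9 at 0.871 and 0.541. Gprasp1 encodes a protein that sorts opioid receptors to lysosomes. Grk3, Rgs9 and Gprasp1, 3 of the 9, were lower by 1.5-fold or more, beside 26.5% of all genes, and with the median of all genes set to 0 only 1 of these, Grk3, was. Arrb1, which encodes a beta-arrestin, was 1.92-fold higher, with 0.125 in Wistar and 0.239 in SHR. Grk3 and Arrb1 were named after their values were seen.

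**Figure D4:**
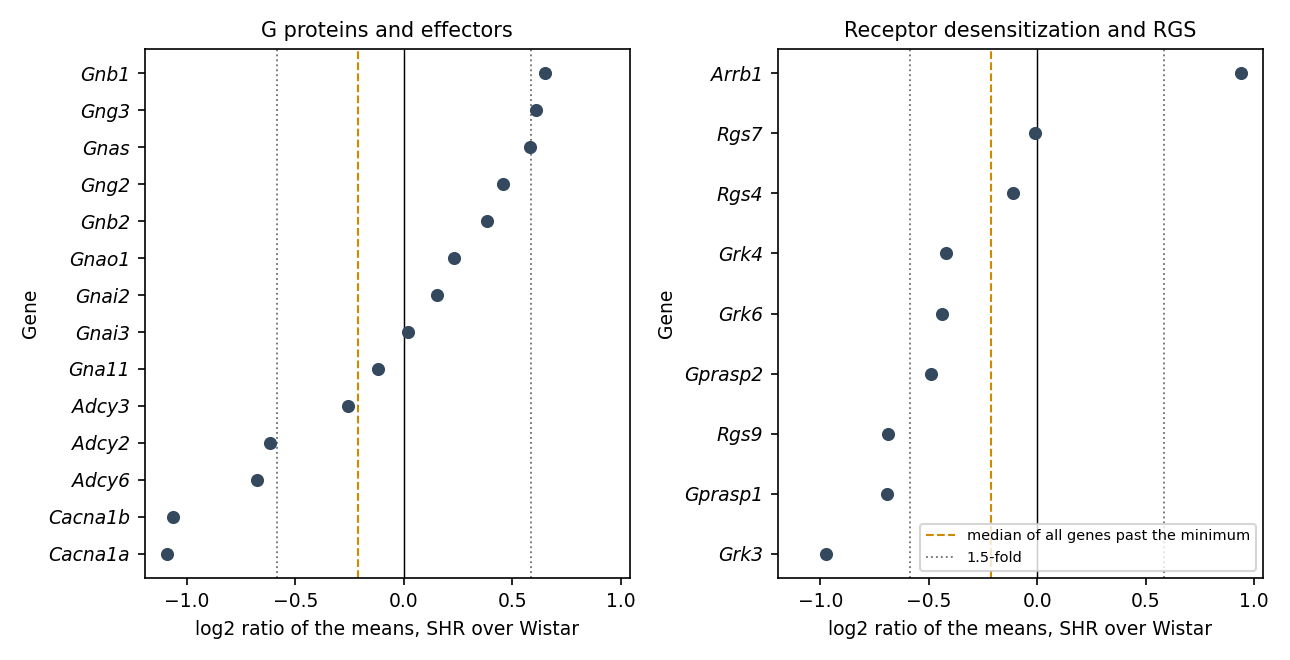
Log2 ratio of the means, SHR over Wistar, of genes with an average of at least 0.1 per 10000 for G proteins and effectors (left) and for receptor desensitization and RGS proteins (right), with a dashed line at the median of all such genes and dotted lines at 1.5-fold. G protein subunit genes lie mostly to the right of 0 and calcium channel and adenylyl cyclase genes to the left, and Arrb1, at 0.94, is the one gene right of 0 in the right panel, where Rgs4 and Rgs7 lie left of 0 but right of the median of all genes.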

How the data were processed

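Single cells of dissociated stellate ganglia of Wistar rats and SHRs were sequenced by the 10x Genomics 3' v3 method, in 1 library per strain. The submitters' processing notes list Cell Ranger 3.0.2, Seurat 3 and the rat build Rnor_6.0. The authors clustered the cells and deposited, for the sympathetic neurons of each library, each gene's mean count per 10000 as the natural log of the mean plus 1. A further deposited table of the authors' own comparison of the strains (fold changes, p-values and shares of cells) was not used. Each 3' count stands for a transcript end, so levels were compared between genes without a length correction.

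The values were converted back to means with Python 3.11.15, NumPy 2.4.6 and pandas 2.3.3, and of 25399 lines the 4 whose name occurs more than once were dropped. With these lines kept, the means sum to 10000 in each library, and without them to 9998.47 in Wistar and 9997.93 in SHR. Ranks and recurring values were taken with these lines kept. The number of neurons and the counts per neuron are not given in the sources used here, so no counting interval was computed. Ratios of means carry no pseudocount and are not given where a mean is 0, and differences of logs carry a pseudocount of 1. Counts over genes use an average of at least 0.1 per 10000. No test between strains was possible. The code was checked on made-up data with known ratios.

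The 10 genes and the gene lists were chosen with earlier results of these data known. Named were the 10 genes, up to the 5 most abundant genes past 0.1 in each list, all peptide genes above 0, and the 3 genes nearest in level to the top 2 receptors. The recurring values, the ranges over genes of like level, the motifs and some other genes were chosen after values were seen. Alternatives were other pseudocounts, other minimums, other fold limits and other scalings, and the scalings were applied to the other gene lists after values were seen. Single cells and their barcodes were not analysed here, and how cells were filtered and doublets treated is not given in the sources used here.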

Additional observations from a re-analysis of the deposited data

How the results depend on the processing

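No paired analysis was possible because the design holds 1 library of either strain, and no replicate could be left out. No difference of a receptor gene changed sign under the scalings tried. A pseudocount added to both means cannot change a sign, and no scaling can do so for Npy2r, Galr1 and Sstr4, at 0 in SHR. Leaving the markers of other cells out of the total took away only 5.73 per 10000 in Wistar and 1.82 in SHR. Over the 3 genes that passed 0.1 per 10000, the median log2 difference of -0.11 became -0.39, -0.47 and -0.013 with pseudocounts of 0.1, 0.01 and 10, by construction. It became -0.12 when the total left out mitochondrial genes and ribosomal protein genes, -0.069 with the median log2 ratio of all genes at 0, -0.00050 with no minimum, and -0.040 and -0.27 with minimums of 0.01 and 0.5. The 2 genes lower in SHR became 6 with no minimum, which adds genes listed at 0 in SHR, and 1 with a minimum of 0.5. The 0 genes at least 1.5-fold lower became 1 with no minimum and 2 at the lower fold limit tried. The 1 gene at least 1.5-fold higher, Npy1r, became 0 with a minimum of 0.5 and 0 at a limit of 2. With the median log2 ratio at 0, the fold of Npy1r was 1.84 and that of Sstr2 1.52. The unknown counting error limits the genes near the recurring values most.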

Other observations

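Genes of enzymes that cleave peptides, some of them inside the cell, were unevenly present in the neurons. Of 11 such genes, 5 passed the average of 0.1 per 10000, and 4 of the 5 were lower in SHR, beside 65.6% of all genes, a count that became 2 with the median log2 ratio of all genes set to 0, where Nln and Thop1 changed sign. The most abundant was Ece2, an endothelin-converting enzyme gene, with 1.67 per 10000 in Wistar and 0.865 in SHR, 1.93-fold lower. Ece1 had 0.650 and 0.716, Nln (neurolysin) 0.499 and 0.432, Thop1 0.229 and 0.226, and Prep 0.202 and 0.172. Dpp4, whose product cuts neuropeptide Y, was listed at 0.000343 in Wistar and 0.00129 in SHR, and Mme, which encodes neprilysin, at 0 and 0.00101. The RAMP genes, whose products attach to receptors such as that for calcitonin gene-related peptide, were present, with Ramp2 at 0.605 in Wistar and 0.976 in SHR and Ramp1 at 0.312 and 0.260. Ramp3 was lower, with 0.0378 and 0.0509. The receptor gene Calcrl, their main partner, was listed at 0.00410 in Wistar and at 0 in SHR, and was named after its value was seen, as were Dpp4 and Mme.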
